A study of Mus musculus with 26 samples.

Results

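The genes described here encode transcription factors of the LIM (Lhx, Lmx1), POU, Nkx, TALE (Meis, Pbx, Irx), Onecut, Zfhx and Pax families. Most of them, though not every Pax gene, encode a full homeodomain. They were picked by symbol alone, as every row of the count table whose name has one of these family stems and a number, which gave 66 of 23107 genes. The counts come from adult mice aged 55 to 165 days that carry a GnRH-Cre driver and a floxed-stop L10a-GFP allele, so that Cre made in GnRH neurons switches on a GFP-tagged ribosomal protein there. Tagged ribosomes were pulled down from punches of the preoptic area, which gave each pool of 5 to 7 mice an immunoprecipitate enriched for RNA of GnRH neurons and a supernatant depleted of it. All groups share this genotype and tissue: intact females in diestrus (3 pools), ovariectomized females (3 pools), intact males (4 pools) and orchidectomized males (3 pools), each in both fractions, 26 libraries in all. Pools are numbered from 0 within a condition, as in the labels, and gonadectomized is used below for both operations.

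A homeodomain is a fold of 3 helices that reads DNA mainly through the last of them, the recognition helix. POU factors join it to a second DNA-binding domain, LIM factors to zinc-binding domains that recruit the Ldb cofactors, TALE factors carry a loop of extra residues and pair with other homeodomain proteins, and Zfhx factors hold several homeodomains and many zinc fingers. GnRH neurons are born in the nasal region and migrate into the forebrain, whereas the preoptic neurons around them arise locally under factors such as Nkx2-1, Lhx6 and Lhx8. The octamer-binding protein Pou2f1 (Oct-1), Pbx and Meis proteins and Six6 are among the factors known to bind the regulatory regions of Gnrh1.

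Recognition-helix codons are shown for 7 members, 5 of the higher and 2 of the lower ones in the pull-down described below, because this short stretch sets the families apart. Each line gives 36 coding bases of the longest GENCODE M21 coding transcript on mm10, read 5′ to 3′ along the gene's own strand. The capitals mark the codon of the residue that follows the aromatic pair of the helix and faces the DNA bases. The stretches of Meis1, Pbx3 and Lhx6 cross an intron, so their coordinates span more than 36 bases.
Pou2f1 (chr1:165894986-165895021, minus): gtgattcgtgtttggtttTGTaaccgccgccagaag
Pou2f2 (chr7:25096968-25097003, minus): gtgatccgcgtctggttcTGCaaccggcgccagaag
Pou3f1 (chr4:124658844-124658879, plus): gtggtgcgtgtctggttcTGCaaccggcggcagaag
Meis1 (chr11:18885630-18905702, minus): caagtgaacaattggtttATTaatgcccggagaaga
Pbx3 (chr2:34178310-34204782, minus): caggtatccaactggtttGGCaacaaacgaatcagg
Onecut1 (chr9:74889482-74889517, plus): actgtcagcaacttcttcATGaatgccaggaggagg
Lhx6 (chr2:36091110-36091328, minus): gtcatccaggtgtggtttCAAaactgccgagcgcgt

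The POU genes shown carry a cysteine codon there, Lhx6 a glutamine codon, Meis1 isoleucine, Pbx3 glycine and Onecut1 methionine. Of 23 Lhx, Lmx1 and Nkx members all 23 held the glutamine codon, and 12 of 15 POU members held the cysteine codon. A search for the residue pattern of this helix found no match in Pax1, Pax2, Pax5, Pax8 and Pax9. Pou2f2 and Pou3f1 differed at 4 of these 36 bases, and they moved in opposite directions between the fractions. Of the members with a cysteine codon 2 were called higher and 3 lower, and of those with glutamine codons, the Zfhx genes included, 4 were called higher and 9 lower. Calls in both directions occurred with either codon. The codons describe the encoded proteins, so these counts do not bear on why an RNA was higher or lower.

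Total counts ran from 27217253 to 56668582 per library. Gnrh1, which encodes the hormone precursor, checked the fractions: it lay between 3174 and 20931 CPM (read counts scaled to one common effective library size) in the immunoprecipitates and between 47.5 and 1579 CPM in the supernatants. It ranged from 16896 to 20931 CPM in the 4 immunoprecipitates numbered up to 10 in the labels, all of intact mice, and from 3174 to 8774 CPM in the 9 later ones. The highest supernatant value, 1579 CPM, belonged to intact female pool 2. Of 13 tested genes listed for GnRH neurons, Gnrh1 among them, 5 were higher in the pull-down, 2 were lower and the others were not called. The immunoprecipitate of gonadectomized male pool 0 stood apart in endothelial and mural markers (339 CPM summed over 10 genes, the next highest 102) and in astrocyte markers (2225 CPM over 10 genes, the next 698). The supernatant of intact male pool 3 held 1165 CPM of 3 blood genes against 60.6 in the next. All 10 oligodendrocyte markers were lower in the pull-down (summed 1309 to 2051 against 2373 to 3272 CPM), as were 6 of 10 astrocyte markers (405 to 2225 against 471 to 908 CPM) and 6 of 10 microglial markers (45.6 to 111 against 68.6 to 141 CPM). By contrast 5 of 10 endothelial and mural markers were higher and 1 was lower (17.9 to 339 against 18.4 to 43.1 CPM). In such bulk RNA, fewer cells of a type and less RNA per cell cannot be told apart.

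The comparison of immunoprecipitate with supernatant over all 13 pools asked which of these factors are enriched on the ribosomes of GnRH neurons. Of the 66 members, 45 had enough counts to be tested. The called ones comprised 11 that were higher in the pull-down and 17 that were lower, while 17 did not pass (edgeR quasi-likelihood test, Benjamini-Hochberg adjusted over 16713 genes, adjusted p under 0.05). Among all tested genes 21.3% were called higher and 21.6% lower, so that the members' shares, 24.4% and 37.8%, lay close to the background for the higher calls and above it for the lower ones. The median log2 fold change was -0.48 over the 45 tested members and -0.06 over all tested genes. Called differences of at least 2-fold were seen for 5 higher and 7 lower members, 11.1% and 15.6% of those tested, against 3.8% and 5.6% of all tested genes. The direction was the same in all 13 pools for 15 of the 28 called members, 5 higher and 10 lower, which is 11.1% and 22.2% of the tested members against 6.79% and 7.64% of all tested genes. The ranges of both fractions did not overlap at all for 3 of the called members, Meis1, Nkx2-2 and Pou3f1, a share of 6.67% near the 4.55% over all tested genes.

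**Figure D1:**
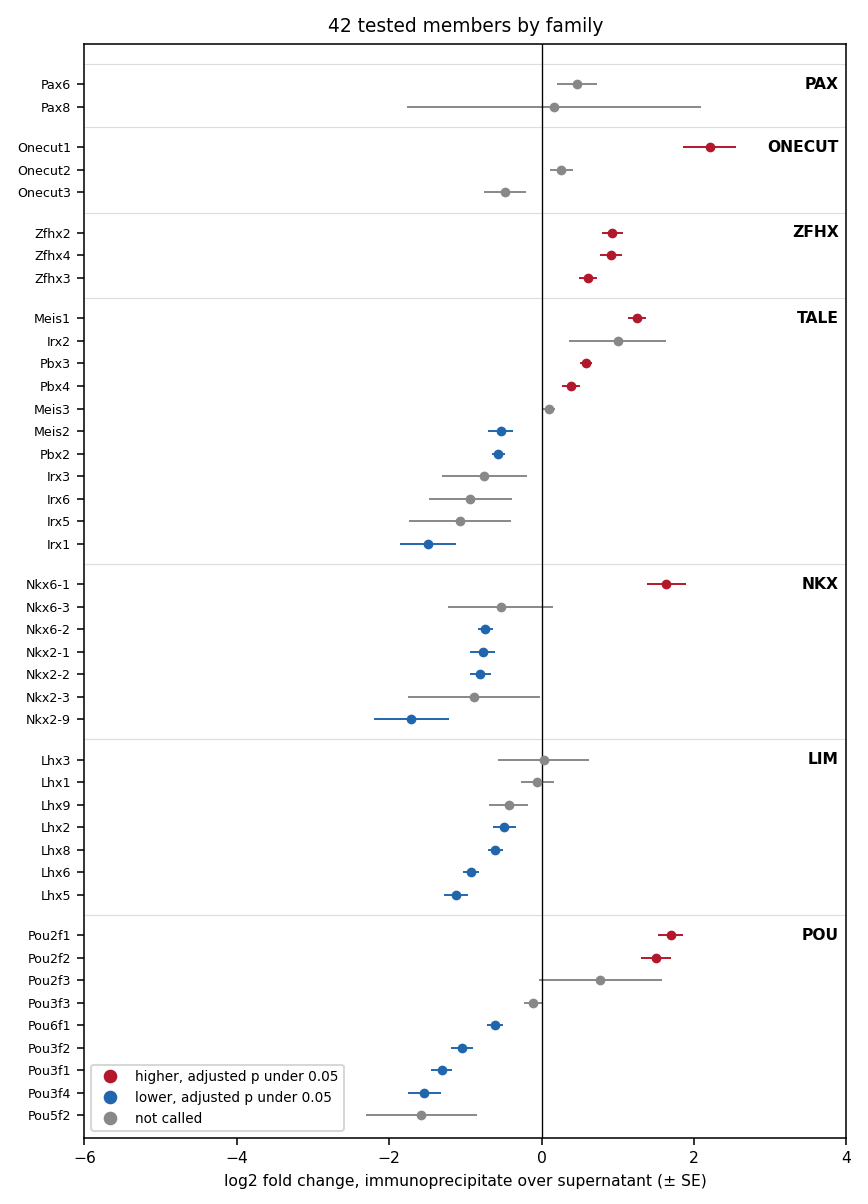
Log2 fold change of immunoprecipitate over supernatant (x axis, points, bars ± SE of the fit) for 42 of the tested members, grouped by family, with called members in red (higher) or blue (lower). The 3 Zfhx genes lie right of 0, 4 Lhx genes lie left of it as called, and the POU, Nkx and TALE families fall on both sides.

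The POU family was divided by class. Pou2f1 and Pou2f2, the octamer-binding class 2 factors Oct-1 and Oct-2, were higher in the pull-down, and Pou3f1, Pou3f2 and Pou3f4, class 3 factors of neural development, were lower. Pou2f1 (chromosome 1, 165865154 to 166002678, minus strand) stood in the immunoprecipitates at 42.8, 29.5 and 51.7 CPM in the intact female pools, 43.6, 38.0 and 46.7 in the ovariectomized pools, 16.2, 44.8, 77.6 and 76.7 in the intact male pools and 67.6, 112 and 102.5 in the orchidectomized pools. Its supernatants lay between 14.5 and 20.9 CPM. The pull-down was higher in 12 of 13 pools, the exception being intact male pool 0 at 16.2 against 18.1 CPM. Pou2f1 averaged 57.7 ± 28.1 CPM (SD, n = 13) against 16.9 ± 1.78. The fitted change, averaged over the conditions on the log2 scale, was 3.23-fold upward (log2 1.69 ± 0.17 SE, adjusted p 2.2e-08).

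Pou2f2 (chromosome 7, 25087344 to 25179726, minus strand) ranged from 16.8 to 60.8 CPM with a median of 35.5 in the immunoprecipitates, and from 9.46 to 16.98 with a median of 13.02 in the supernatants. It was higher in 13 of 13 pools, although the lowest pull-down value fell within the supernatant range. The change was 2.82-fold (log2 1.498 ± 0.20, adjusted p 1.6e-06). The third gene of the class, Pou2f3, known from tuft and skin cells, had at most 1.73 CPM and did not pass (log2 0.77 ± 0.81, adjusted p 0.47).

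Among the class 3 genes, Pou3f1 (chromosome 4, 124656807 to 124660655, plus strand) had the clearest separation. Its immunoprecipitates held 19.99, 28.1 and 52.6 CPM in the intact female pools, 41.0, 63.2 and 48.9 in the ovariectomized pools, 22.4, 52.4, 43.8 and 43.7 in the intact male pools and 55.9, 58.1 and 44.1 in the orchidectomized pools. Every supernatant was higher, from 79.9 to 157 CPM. Pou3f1 fell 2.48-fold (log2 -1.31 ± 0.14, adjusted p 6.7e-08).

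Pou3f2 (Brn-2, needed for hypothalamic neuroendocrine neurons) had medians of 8.53 CPM in the immunoprecipitates and 19.3 in the supernatants (log2 -1.05 ± 0.14, adjusted p 3.1e-06) and was lower in 12 of 13 pools. Pou3f4 (Brn-4, on the X chromosome) had medians of 2.01 and 6.597 CPM (log2 -1.54 ± 0.21, adjusted p 3.5e-06) and was lower in 13 of 13. Pou3f3 (Brn-1) was the class 3 gene that did not pass, with medians of 26.6 and 31.1 CPM (log2 -0.11 ± 0.12, adjusted p 0.50). So 3 of the 4 class 3 genes fell and none of them was called higher.

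Among the other POU genes, Pou6f1 was lower in 12 of 13 pools, with medians of 40.8 and 62.5 CPM (log2 -0.61 ± 0.10, adjusted p 3.4e-05). Pou5f2, which shares its class with the gene of the pluripotency factor Oct-4, reached 1.296 CPM at most and did not pass (log2 -1.58 ± 0.73, adjusted p 0.087).

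**Figure D2:**
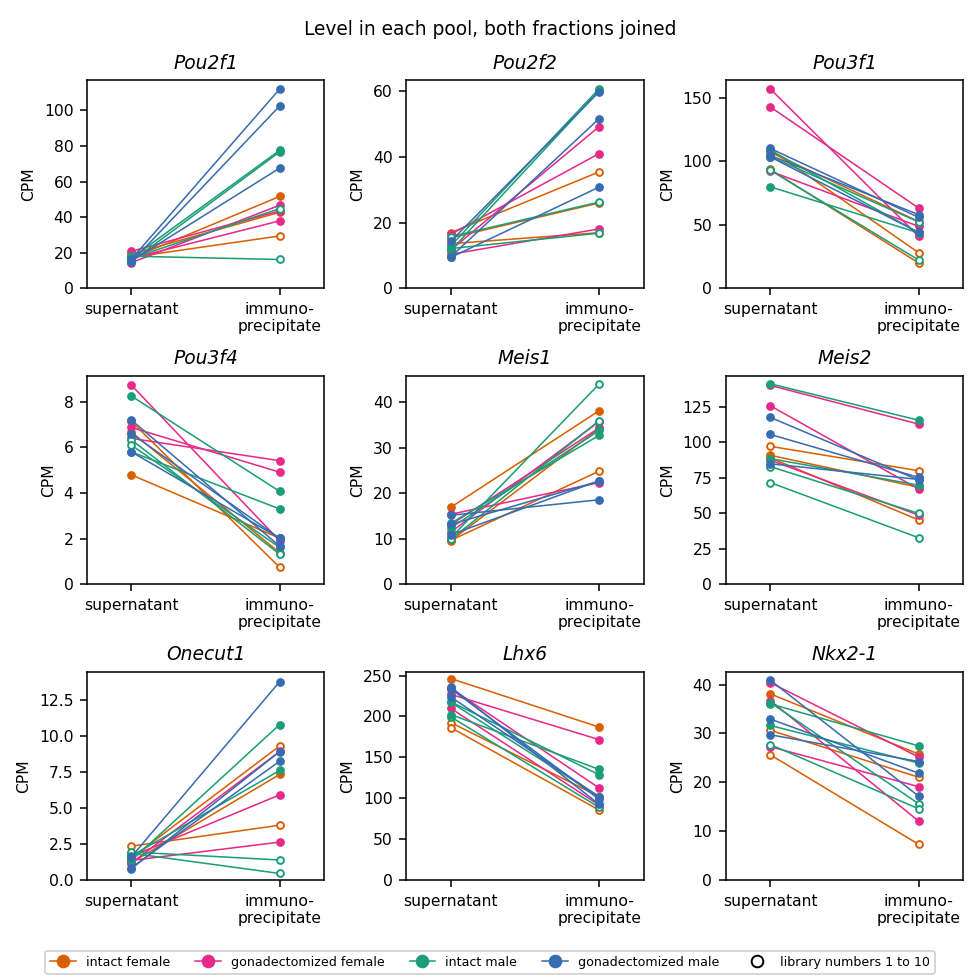
CPM (y axes, from 0) of 9 members in the supernatant and immunoprecipitate of each pool, both joined by a line, coloured by condition, with open symbols for the 4 pools numbered up to 10. Pou2f1, Pou2f2, Meis1 and Onecut1 slope up in most or all pools, whereas Pou3f1, Pou3f4, Meis2, Lhx6 and Nkx2-1 slope down in all 13.

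None of the LIM homeodomain members was enriched: of 7 tested Lhx genes 4 were lower and 3 did not pass. Lhx6 (chromosome 2, 36081953 to 36105408, minus strand), which specifies cortical and striatal interneurons of ventral origin, stood at 85.6 to 187 CPM with a median of 102 in the immunoprecipitates and at 186 to 246 with a median of 218 in the supernatants. The pull-down was lower in 13 of 13 pools, and the ranges touched only through intact female pool 2 at 187 CPM. The change was 1.90-fold down (log2 -0.92 ± 0.11, adjusted p 3.4e-07). Lhx8, which directs basal forebrain cholinergic neurons, had medians of 63.5 and 98.9 CPM (log2 -0.60 ± 0.09, adjusted p 1.7e-05) and was likewise lower in all 13 pools.

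Lhx5 (chromosome 5, 120431699 to 120441223, plus strand), a regulator of forebrain and mammillary development, fell most among the LIM genes. It had medians of 12.3 CPM in the pull-down and 25.6 in the supernatant (log2 -1.12 ± 0.15, adjusted p 2.8e-06), and was lower in 13 of 13 pools. Lhx2, a selector of cortical and hypothalamic fates, had medians of 19.3 and 24.2 CPM (log2 -0.49 ± 0.15, adjusted p 0.0092). It no longer passed in the libraries numbered 11 to 30 (log2 -0.31, adjusted p 0.085). Lhx1, Lhx3 and Lhx9 lay between -0.43 and 0.03 on the log2 scale without passing.

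Markers of the neurons these LIM factors are known for were lower in the pull-down as well. Of 4 GABAergic markers 3 were lower, with a summed level of 772 to 1434 CPM against 1004.5 to 1727. All 3 cholinergic markers were lower, at 23.04 to 85.0 against 78.9 to 135 CPM. None of these markers was at 0 in every immunoprecipitate. Their part in the Lhx6 and Lhx8 results was not tested.

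Of 8 tested Nkx genes 1 rose and 5 fell. Nkx6-1 (chromosome 5, 101658139 to 101664996, minus strand), known for motor neuron and pancreatic beta cell identity, was higher in 13 of 13 pools, yet at a low level. It ranged from 0.858 to 4.46 CPM around a median of 1.65 in the pull-down and from 0.320 to 1.303 around 0.604 in the supernatant (log2 1.64 ± 0.25, adjusted p 1.4e-05). Its close relative Nkx6-2, a gene of oligodendrocytes and ventral progenitors, went the opposite way in all 13 pools, with medians of 41.0 and 70.98 CPM (log2 -0.74 ± 0.10, adjusted p 2.4e-06). Nkx6-3 had at most 0.850 CPM and did not pass.

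Nkx2-1 (chromosome 12, 56531958 to 56536908, minus strand), the factor that patterns the ventral forebrain and hypothalamus, was lower in 13 of 13 pools. Its range was 7.33 to 27.5 CPM, median 21.1, in the immunoprecipitates and 25.6 to 40.9, median 32.9, in the supernatants (log2 -0.77 ± 0.16, adjusted p 0.00044). Nkx2-2, a factor of oligodendrocyte precursors and ventral neurons, did not overlap between fractions: 3.07 to 7.195 CPM in the pull-down and 8.04 to 11.8 in the supernatant (log2 -0.80 ± 0.14, adjusted p 7.0e-05). The oligodendrocyte markers, at 1309 to 2051 against 2373 to 3272 CPM, fell alongside Nkx2-2 and Nkx6-2. Markers of oligodendrocyte precursors were mixed: of 6 tested 1 was higher and 3 were lower (summed 70.0 to 149 against 83.2 to 135 CPM). The part of either marker set in these results was not tested.

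Nkx2-9, whose call rests on few counts, was lower in only 8 of 13 pools (adjusted p 0.0067). It read 0, 0.0529, 0 and 0 CPM in the pull-downs of intact males against 0.547 to 1.24 in their supernatants, while the other 9 immunoprecipitates ran from 0 to 1.75 CPM. Nkx2-3 did not pass (adjusted p 0.43), but it was called lower with the pool as a block (log2 -2.98, adjusted p 0.044), by limma voom, and without the immunoprecipitate of intact female pool 2 or of gonadectomized male pool 0.

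In the TALE family 3 of 12 tested genes were higher and 4 lower. The Meis genes, which pair with Pbx and Hox proteins, gave 1 call in each direction. Meis1 (chromosome 11, 18879817 to 19018985, minus strand) stood in the pull-down at 34.2, 24.8 and 38.1 CPM in the intact female pools, 35.7, 22.3 and 34.3 in the ovariectomized pools, 44.0, 35.9, 32.7 and 33.7 in the intact male pools and 22.6, 22.7 and 18.5 in the orchidectomized pools. All supernatants were below these values, at 9.58 to 16.9 CPM. Meis1 rose 2.38-fold (log2 1.25 ± 0.12, adjusted p 8.2e-09), the lowest adjusted p of any member.

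Meis2 was lower in 13 of 13 pools, with medians of 69.7 and 90.7 CPM (log2 -0.53 ± 0.16, adjusted p 0.011), although it did not pass in the libraries numbered 11 to 30 (log2 -0.45, adjusted p 0.063). Meis3 was level between the fractions, at medians of 107 and 94.9 CPM (log2 0.10 ± 0.08, adjusted p 0.32).

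Pbx genes, which encode partners of Meis and Hox factors, changed by small amounts. Pbx3 was higher in 13 of 13 pools at medians of 60.02 and 39.5 CPM (log2 0.58 ± 0.08, adjusted p 4.2e-06), and Pbx2 lower in 13 of 13 at 31.9 and 46.8 CPM (log2 -0.57 ± 0.09, adjusted p 1.0e-05). Pbx4 was higher in 11 pools (log2 0.38 ± 0.12, adjusted p 0.012), and its log2 was 0.16 with an adjusted p of 0.375 in the libraries numbered 11 to 30.

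The Iroquois genes, which pattern the dorsal brain and thalamus, stood at low levels. Of 5 tested, Irx1 was called, lower in 12 of 13 pools with medians of 0.205 and 0.716 CPM (log2 -1.49 ± 0.37, adjusted p 0.0020). Irx2, Irx3, Irx5 and Irx6 had medians below 3 CPM in both fractions and did not pass. With the pool as a block, Irx3 (log2 -1.66, adjusted p 0.0355) and Irx5 (log2 -2.36, adjusted p 0.0345) were called lower. Limma voom called Irx3, Irx5 and Irx6 lower.

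All 3 Zfhx genes rose together. Zfhx3, known for its part in circadian timing in the suprachiasmatic nucleus, had medians of 66.6 and 44.7 CPM and was higher in 10 of 13 pools (log2 0.61 ± 0.12, adjusted p 0.00027). Zfhx4 had medians of 26.9 and 17.4 CPM and was higher in 12 (log2 0.91 ± 0.15, adjusted p 2.4e-05). Zfhx2 was higher in all 13, at 30.5 and 14.7 CPM (log2 0.93 ± 0.14, adjusted p 7.3e-06). In each of them the ranges of the fractions overlapped.

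Onecut1, a cut-homeodomain factor of liver and hypothalamus, had the largest fold among the higher members and also a wide spread. Its pull-downs read 3.82, 9.34 and 7.36 CPM in the intact female pools, 8.95, 2.65 and 5.93 in the ovariectomized pools, 0.464, 1.40, 7.63 and 10.8 in the intact male pools and 8.94, 8.27 and 13.8 in the orchidectomized pools. Its supernatants lay between 0.799 and 2.36 CPM. Intact male pools 0 and 1 fell below their own supernatants, and the other 11 pools rose. The mean change was 4.62-fold (log2 2.21 ± 0.35, adjusted p 1.7e-05). Onecut2 and Onecut3 did not pass, at log2 0.26 ± 0.15 and -0.48 ± 0.28.

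Pax6, the regulator of eye and forebrain patterning, and Pax8 were the only tested Pax genes, and neither passed (log2 0.46 ± 0.26 and 0.17 ± 1.93). The other 21 members did not pass the filter on low counts, and their highest count in any library was 27. They were Lhx4, Lmx1a and Lmx1b, Nkx1-2, Nkx2-4, Nkx2-5, Nkx2-6 and Nkx3-2, Irx4, Pou4f1, Pou4f2, Pou4f3, Pou5f1 and the pituitary factor Pou1f1, and the remaining 7 Pax genes. Nkx2-5, Pou1f1 and Pou4f2 were at 0 in every library.

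The pools numbered up to 10 and the later ones differed in the size of several changes. By median log2 ratio per pool, with 0.5 CPM added to both values, Pou2f1 stood at 0.93 in the 4 early pools and 2.09 in the 9 later ones, Pou2f2 at 0.59 and 2.02, Onecut1 at 0.11 and 2.48, and Zfhx3 at 0.07 and 1.08. Meis1 went the other way, at 1.80 and 1.15. Among the lower members Pou3f1 stood at -1.98 and -1.02 and Lhx6 at -1.10 and -1.05. Gnrh1 in the pull-down had medians of 19047 and 5096 CPM in the same sets. All 4 early pools were of intact mice, and every gonadectomized pool was among the later ones. These medians therefore cannot tell numbering and gonadectomy apart, and the part of either was not tested.

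Compared between genes by median CPM per kilobase of exon, the levels also changed order between fractions. In the supernatants the leading members were Lhx6 at 45.3, Lhx8 at 39.0, Nkx6-2 at 37.2, Meis3 at 29.9 and Pou3f1 at 27.2. In the immunoprecipitates they were Meis3 at 33.8, Lhx8 at 25.1, Nkx6-2 at 21.5, Lhx6 at 21.2 and Pbx4 at 14.2. Meis3 was thus the leading member of the pull-down without being enriched there, and Lhx6, Lhx8 and Nkx6-2 were still among its most abundant ones although they were called lower. Pou2f1 and Pou2f2 were at 2.82 and 4.30 in the pull-down on the same scale.

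Changes in the pull-down ran along with exonic length. Spearman's rho between log2 fold change and exonic length was 0.57 over the 45 tested members, whereas it was -0.16 over 14974 tested genes with a length. Both are descriptions across genes, which share libraries and are not independent. Of the 9 members over 10000 bases of exon 5 were higher and 2 lower, and of the 23 under 4000 bases 2 were higher and 11 lower. The part of length in the calls was not tested.

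**Figure D3:**
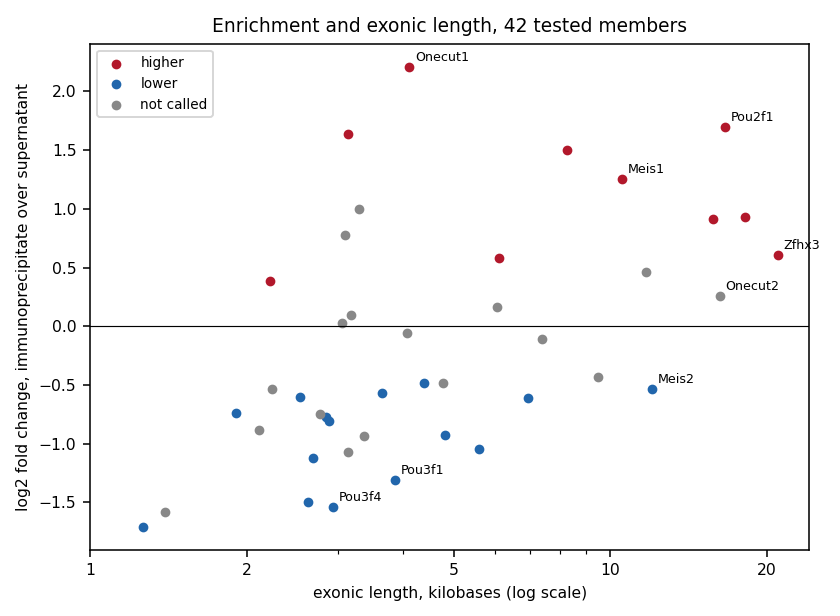
Log2 fold change of immunoprecipitate over supernatant (y axis) against exonic length in kilobases (x axis, log scale) for 42 of the tested members, coloured by call. Zfhx2, Zfhx3, Zfhx4, Pou2f1 and Meis1 sit at the upper right, and Pou3f1 and Pou3f4, both under 4 kilobases, at the lower left.

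The libraries do not mark the strand, so reads over shared exons cannot be assigned between genes. Exons of Pou2f1 share 3007 bases with Cd247, a T cell receptor subunit gene on the opposite strand. Cd247 was higher in the pull-down as well (log2 3.53 ± 0.56, adjusted p 2.1e-05), at a median of 2.01 CPM against 0.182. The median of Pou2f1 in the pull-down was 46.7 CPM. How the reads over the shared bases were credited is not known, and their part in the Pou2f1 result was not tested. Nkx6-2 shares 246 bases with Inpp5a (log2 -0.20, adjusted p 0.057), and Pbx2 shares 227 bases with Gpsm3, whose median was 3.14 against 4.95 CPM. Among the called members, GENCODE lists further antisense or overlapping transcripts for Zfhx2 (17.9% and 10.04% of its exonic bases), Onecut1 (52.8%) and Nkx2-2 (9.67%). Others overlap Meis1, Pou3f1, Lhx5, Lhx6 and Pou2f2. The levels of these transcripts were not measured here.

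Within the single conditions fewer members passed than over all pools. In intact females 2 members were called higher (10.2% of all tested genes were) and 9 lower (7.77%). In gonadectomized females 4 were higher (2.97%) and 6 lower (3.31%). In intact males 9 were higher (14.6%) and 10 lower (11.2%), and in gonadectomized males 9 were higher (5.93%) and 6 lower (4.73%). As shares of the 45 tested members the counts lay above the background in each case but the higher calls of intact females. Some counts rest on single libraries: the lower calls fell to 2 in gonadectomized females without supernatant 0 or immunoprecipitate 0 or 2, and to 3 in gonadectomized males without immunoprecipitate 2. The lower calls of intact females rose to 14 without immunoprecipitate 2, and their higher calls ran from 1, without any single one of their supernatants, to 5 without the same immunoprecipitate and 4 without that of intact male pool 0. The higher calls of gonadectomized females fell to 2 without supernatant 1 or 2 or immunoprecipitate 0 or 2.

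Lhx6, Pou2f1 and Pou3f1 passed in all 4 conditions. Pou2f1 had log2 values of 1.21 and 1.297 in intact and gonadectomized females and of 1.68 and 2.59 in intact and gonadectomized males, with adjusted p from 2.1e-05 to 0.022. In the same order Pou3f1 had -1.62, -1.36, -1.25 and -1.01, with adjusted p from 0.00067 to 0.023, and Lhx6 had -0.74, -0.84, -0.88 and -1.24, with adjusted p from 0.00058 to 0.025. A further 6 members passed in 3 conditions: Meis1, Pbx3, Pou2f2, Pou3f4, Nkx6-2 and Lhx5. With the pool as a block Nkx6-2 passed in intact females as well (adjusted p 0.049), as did Lhx8, Meis2 and Nkx2-1 (adjusted p 0.032, 0.0496 and 0.035), while Nkx2-2 did not (adjusted p 0.062). Of the rest, 8 passed in 2 conditions and 9 in 1, and none was called in opposite directions.

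Of the 28 members called over all pools 25 had the same sign in all 4 conditions. The test over all pools averages these 4 conditions in the same fit, so this agreement is partly built in and is no separate evidence. The 3 Zfhx genes and Nkx6-1 passed in both male groups and in neither female group, although no difference between the sexes passed for them. With the pool as a block Zfhx2 passed in intact females too (log2 0.75, adjusted p 0.046). Zfhx4, for example, had log2 values of 1.08 and 1.66 in intact and gonadectomized males (adjusted p 0.0043 and 0.00072) and of 0.15 and 0.76 in the corresponding females (adjusted p 0.78 and 0.16). Onecut2 and Pou5f2 passed in a single condition without passing over all pools. Onecut2 was higher in gonadectomized males (log2 1.11 ± 0.31, adjusted p 0.022), at 10.5, 22.995 and 18.6 against 7.92, 8.76 and 7.51 CPM. Pou5f2 was called lower in intact females (adjusted p 0.027), where all 3 immunoprecipitates were at 0 and the supernatants at 0.382, 0.243 and 0.215 CPM. With the pool as a block both calls were lost (adjusted p 0.063 and 0.064).

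**Figure D4:**
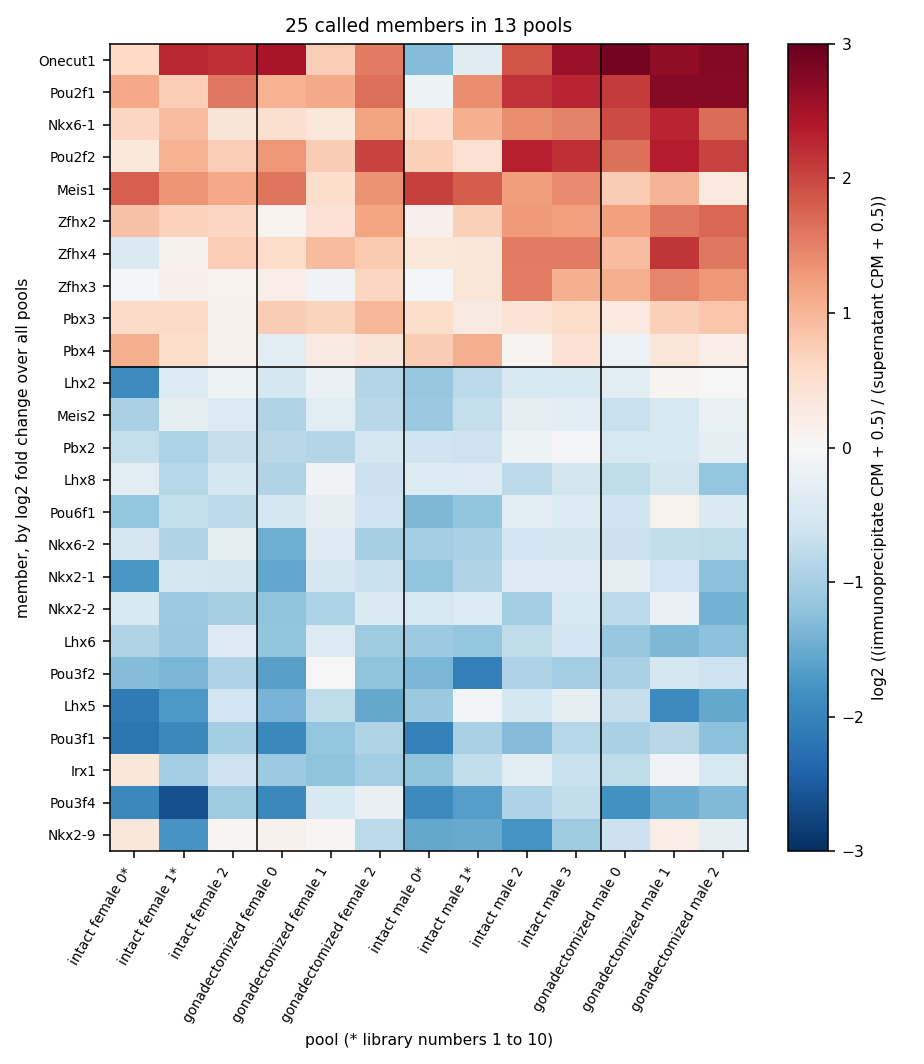
Log2 ratio of immunoprecipitate over supernatant, with 0.5 CPM added to both, for 25 of the called members (rows, by fold change) in each of the 13 pools (columns, by condition, asterisks for pools numbered up to 10). Colours end at -3 and 3, red for higher and blue for lower; Meis1, Pbx3, Zfhx2, Nkx6-1 and Pou2f2 are red and Lhx6, Lhx8, Nkx2-1, Nkx2-2 and Pou3f1 blue in all 13 columns.

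Whether these enrichments differed with sex or gonadectomy was tested in the same fit. No member passed in any of the 4 tests of a difference in enrichment (edgeR quasi-likelihood test). In females, gonadectomized against intact, 0 members passed and 0% of 16713 genes did, and 3 members had an unadjusted p under 0.05 (6.67% of those tested, against 7.47% of all genes). In males the same comparison gave 0 members, 0% of genes and 2 members under 0.05 (4.44% against 8.16%). Between the sexes of intact mice, 0 members passed against 0.00598% of genes, and 6 members were under 0.05 (13.3% against 4.43%). Between the sexes of gonadectomized mice, 0 members passed and 0% of genes did, and 9 members of 45 were under 0.05, against 5.27% of all tested genes. DESeq2 also called no member in these 4 tests.

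The 9 members in the last comparison included Pou2f1, Nkx6-1, Onecut2 and all 3 Zfhx genes, which had a larger enrichment in gonadectomized males than in gonadectomized females. Pou2f1 read 67.6, 112 and 102.5 CPM in the pull-downs of gonadectomized males and 43.6, 38.0 and 46.7 in those of gonadectomized females. The difference in enrichment was 1.29 ± 0.48 on the log2 scale (unadjusted p 0.012, adjusted p 0.89). Zfhx3 read 78.0, 105 and 106 against 63.9, 32.2 and 66.6 CPM (difference 1.01 ± 0.35, unadjusted p 0.0089, adjusted p 0.87). In the supernatants of the same pools Pou2f1 stood at 15.4, 16.5 and 14.9 CPM in males and 20.9, 16.9 and 14.5 in females.

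Meis1 had a smaller enrichment in gonadectomized than in intact males (difference -0.96 ± 0.32, unadjusted p 0.0054, adjusted p 0.59). Its pull-downs were at 22.6, 22.7 and 18.5 CPM in gonadectomized males and at 44.0, 35.9, 32.7 and 33.7 in intact males. Of those 4 intact pools 2 are numbered up to 10. None of these differences passed at 3 or 4 pools a group. Pou2f1, Zfhx3 and Meis1 are shown from among the members with an unadjusted p under 0.05, so their values by pool are no separate evidence.

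**Figure D5:**
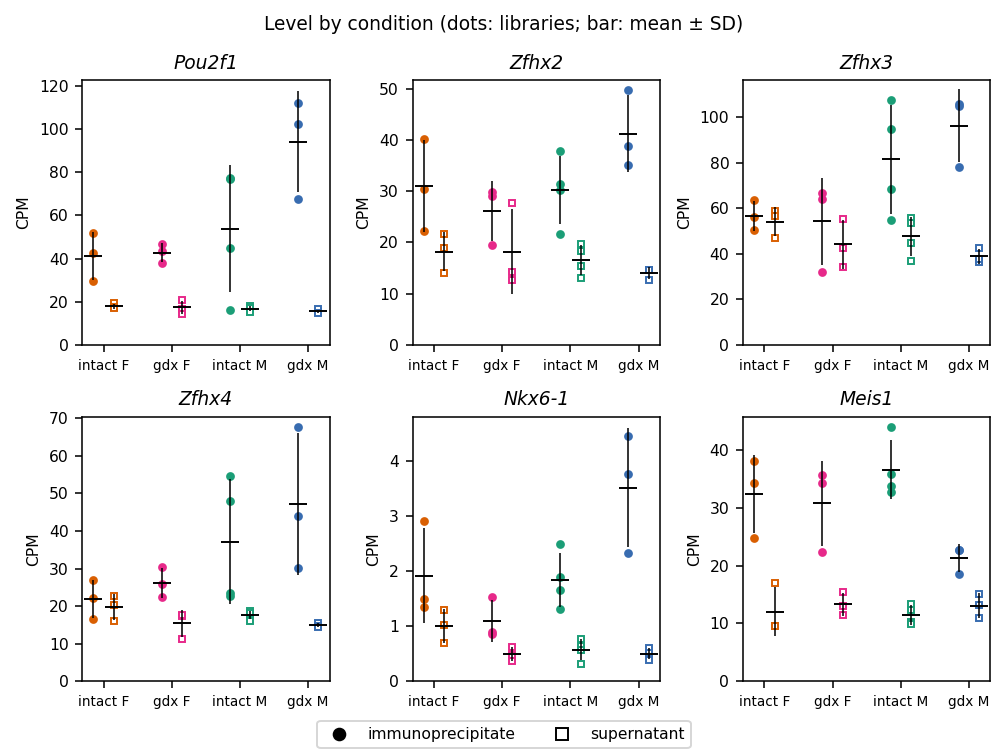
CPM (y axes, from 0) of 6 members by condition (F female, M male, gdx gonadectomized), with filled dots for immunoprecipitates, open squares for supernatants and black bars for mean ± SD over 3 or 4 pools. In gonadectomized males the pull-down values of Pou2f1 lie between 67.6 and 112 CPM and those of Meis1 between 18.5 and 22.7, and the supernatants stay low in every condition for both genes.

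Within the immunoprecipitates alone no member differed between conditions (edgeR, 44 members tested). For gonadectomized against intact mice, 0 members and 0% of 16160 genes passed in females and likewise 0 members and 0% in males, with 2 and 6 members under an unadjusted p of 0.05 (4.55% and 13.6% of those tested, against 3.66% and 9.34% of all genes). Between the sexes, 0 members passed in intact mice (0.0248% of genes) and 0 in gonadectomized mice (0.0186%), with 3 and 6 members under 0.05 (6.82% and 13.6% against 4.11% and 8.59%). DESeq2 called none either. Values across all 13 pools spread more in this fraction than in the supernatants. For the 28 tested members with a supernatant mean above 5 CPM, the median coefficient of variation was 33.1% in the immunoprecipitates and 16.1% in the supernatants. These coefficients were computed across the 4 conditions, so they include differences between conditions as well as between replicates.

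Within the supernatants 45 members were tested and none passed. Gonadectomized against intact gave 0 members in females (0.0122% of 16360 genes) and 0 in males (0%), with 6 and 2 members under an unadjusted p of 0.05 (13.3% and 4.44%, against 7.31% and 2.73% of all genes). Between the sexes it gave 0 in intact mice (0.0428%) and 0 in gonadectomized mice (0.0428%), with 3 and 6 under 0.05 (6.67% and 13.3% against 3.71% and 21.1%). DESeq2 called 2 members between the sexes of gonadectomized mice, Lhx2 (log2 -0.44, adjusted p 0.033) and Onecut2 (log2 -0.61, adjusted p 0.025), both lower in males, where it called 9.61% of all genes with an adjusted p, and none in the other 3 comparisons. By edgeR these stood at adjusted p 0.11 and 0.11. Onecut2 read 7.92, 8.76 and 7.51 CPM in gonadectomized male supernatants and 14.5, 8.76 and 13.01 in female ones.

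Supernatant calls also hung on 1 library. Without gonadectomized female pool 2, Pou3f1, Meis3 and Nkx6-2 passed as higher in gonadectomized than in intact females (log2 0.57, 0.43 and 0.45), as did 3.05% of all genes tested in that fit. Without the same library, Lhx2, Meis3, Nkx6-2, Pbx4 and Pou3f1 passed as lower in gonadectomized males than in gonadectomized females, with log2 values from -0.58 to -0.43, and 17.5% of all genes tested were called there.

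Cofactors and other homeobox genes were counted over all 13 pools as well. The background for these counts is 21.3% of all tested genes called higher and 21.6% called lower. Of 12 genes for LIM cofactors and other LIM proteins 2 were higher and 6 lower (median log2 -0.24). The higher ones were Isl1, a LIM-homeodomain factor known in GnRH neurons (163 ± 24.8 against 62.7 ± 8.17 CPM, log2 1.37 ± 0.09), and Ssbp4, a partner of Ldb proteins (log2 0.46 ± 0.12). Lmo4, which competes with LIM factors for Ldb1, fell most (log2 -0.94 ± 0.13), followed by Rlim (-0.53) and Ssbp3 (-0.47).

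Of 6 genes listed for the TALE family outside the name rule none was higher and 2 were lower. These were Pknox2 (log2 -0.60 ± 0.18, adjusted p 0.0079) and Pknox1 (-0.37 ± 0.15, adjusted p 0.045). The list also holds Pbxip1, a gene for a Pbx-interacting protein with no homeobox, which was not called. Of 6 Groucho-type corepressors, which many homeodomain factors recruit, Tle1 was higher (97.1 ± 15.3 against 48.1 ± 4.89 CPM, log2 1.01 ± 0.08) and Tle3 and Aes were lower (-0.84 and -0.41).

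Of 27 tested forebrain homeobox genes outside the rule 6 were higher and 10 lower, with a median log2 of -0.37. The share of higher calls was close to the 21.3% of all tested genes, and that of lower calls was above their 21.6%. The list they come from also holds Sp8 and Sp9, zinc-finger genes with no homeobox, which were left out of these counts. The largest increases were those of Otx1, Six6 and Dlx5, the last at 91.1 ± 15.1 against 45.3 ± 5.17 CPM (log2 1.00 ± 0.09). The largest decreases were those of Gsx1 (log2 -1.88 ± 0.57), Hmx3 (-1.87 ± 0.40) and Gbx1 (-1.09 ± 0.13).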

How the data were processed

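RNA from both fractions of 13 pools was sequenced as cDNA made with a low-input SMART-Seq kit, which does not mark the strand, per the labels' protocols. The deposited table holds estimated counts per gene made by the authors. The submitters' processing notes name mm10, the aligners Bowtie2 2.1.0 and TopHat2 2.0.9, and Cuffdiff 2.1.1, Cufflinks and FastQC. For the annotation and for multiply mapped reads nothing is given in the sources used here, and paralogs with near-identical stretches are uncertain. Estimated counts were rounded and tested with edgeR 4.0.16 (R 4.3.3), after filterByExpr at its defaults, a total of at least 15 and a count of 10, and TMM scaling (two-sided quasi-likelihood F-test, Benjamini-Hochberg over all genes tested, called at an adjusted p under 0.05). Rows naming no gene numbered 0. Enrichment and its differences came from 1 fit of all 26 libraries in 8 groups, and sex and gonadectomy from a fit of 13 libraries per fraction. The common biological coefficient of variation was 0.560 in the immunoprecipitates and 0.181 in the supernatants. Counts have no molecular identifiers, so depth covers counting error only.

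Both fractions of a pool come from the same mice, which pairs them. Their deviations from the group means correlated at 0.0147 to 0.275, and the fit with the pool as a block is an alternative. Other alternatives were DESeq2 1.42.0 size factors and test, limma 3.58.1 voom, no filter, the libraries numbered 11 to 30, each library left out in turn and, chosen after seeing the data, 3 libraries left out together (intact female supernatant 2, gonadectomized male immunoprecipitate 0 and intact male supernatant 3). Values by library are given for called members, at most the 12 highest and 12 lowest, and for their subfamilies, and of the other lists up to 3 called genes per direction. Pou5f2 is named by library after its values were seen. The members and lists were chosen with earlier results of these data known. Positions, lengths and coding sequences are from GENCODE M21 on mm10, in which all 66 members were found. The fitting code was tested on simulated data. Results of 3 tested members, which stay in the counts and fits, are not reported here.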

Additional observations from a re-analysis of the deposited data

Results flagged for a closer look

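Among the intact males, the groups with 4 libraries, 90 member groups were examined for a library that stood apart from the other 3 by more than the 95% limit of Dixon's test, and 8 did. Chance alone flags about 1 in 20 groups. In the immunoprecipitates, Lhx2 was low in pool 0 (8.33 CPM), and Pou2f3 in pool 0 (0.635 CPM), Nkx2-9 in pool 1 (0.0529 CPM) and Nkx6-3 in pool 3 (0.489 CPM) were high against values at or near 0. In the supernatants, Irx6 in pool 2 (3.64 CPM), Lhx2 in pool 1 (22.6 CPM) and Nkx6-3 in pool 0 (0.441 CPM) were high, and Onecut2 in pool 3 (6.93 CPM) was low. Of these only the Lhx2 and Nkx2-9 values belong to members called over all pools.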

How the results depend on the processing

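Over all pools the count of higher members was 10 to 11 and that of lower members 15 to 23 under every alternative (23 without the filter, 21 by limma voom), and with the replicate block for the pool they were 10 and 20. The block changed no count by more than 1.5 times, and the block by replicate number within a fraction called 0 members, as did the term for library numbers. In intact females the higher count of 2 became 6 by DESeq2, 0 in the libraries numbered 11 to 30, where 1 such pool is left, and 1 without the 3 libraries, and ran from 1 to 5 with a library left out (5 without immunoprecipitate replicate 2, 4 without intact male immunoprecipitate replicate 0, 1 without supernatant replicate 0, 1 or 2). The lower count of 9 became 16 by voom and 0 in the later libraries, and ran from 6 to 14 (6 without supernatant replicate 0 and 14 without immunoprecipitate replicate 2). In gonadectomized females the higher count of 4 became 2 by voom and ran from 2 (without supernatant replicate 1 or 2 or immunoprecipitate replicate 0 or 2) to 5, and the lower count of 6 ran from 2 (without supernatant replicate 0 or immunoprecipitate replicate 0 or 2, and 3 without supernatant replicate 2) to 8. In intact males the lower count of 10 became 3 in the later libraries and ran from 8 to 15 (without immunoprecipitate replicate 2). In gonadectomized males the lower count of 6 ran from 3 (without immunoprecipitate replicate 2) to 7. In the supernatants the count of 0 became 2 by DESeq2 between the sexes of gonadectomized mice and ran from 0 to 5, and from 0 to 3 for gonadectomized against intact females, in both cases through gonadectomized female replicate 2. The cause of these changes was not tested. At 3 or 4 pools a group, members below 1 CPM rest on few counts, and a difference that was not called between conditions is not shown to be absent.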
